A study of Mus musculus with 16 samples.

Results

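Interferon-stimulated genes were followed across 16 mouse bone marrow arrays from a study of the gene Bank1 in leukemia of B cell precursors (BCP-ALL). The list holds 38 genes chosen by name, and 37 of them had a probe set annotated to that gene alone, of 19938 such genes on the array. The remaining gene, Igtp, lies on a probe set shared with Irgm2. The measured genes comprised 18 antiviral effectors, 3 RNA sensors, 3 transcription factors of the response, 8 regulators, 2 GTPases of the interferon gamma response and 3 genes of antigen processing.

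Arrays labelled as leukemic cells, from total bone marrow, came from mice of genotype Bank1+/- + Pax5+/- (6 arrays, named Bank1/Pax5 leukemia) or Pax5+/- (6 arrays, named Pax5 leukemia). The other 4 held RNA of proB and preB cells from the bone marrow of WT mice. Both leukemia groups carry the same loss of 1 Pax5 allele, and only the first also carries the Bank1 allele loss. All mice lived in a conventional facility with exposure to common pathogens; the labels give no treatment, strain or age. The labels call the replicates biological, 1 mouse each; the design text names 3 WT mice, whereas 4 WT arrays carry their own replicate number. One WT label, that of cell type, names leukemic cells although all others name WT precursors, which is how the 4 arrays were used. The WT fraction and total leukemic marrow differ in their cells as well as in genotype and disease, and these cannot be told apart in a comparison with WT.

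Cells that sense viral or bacterial nucleic acid secrete type I interferons. Type I interferons act through the receptor of Ifnar1 and Ifnar2, and interferon gamma through that of Ifngr1 and Ifngr2; both use Janus kinases to activate STAT factors. Type I interferons act on promoters through the interferon-stimulated response element (ISRE), and interferon gamma through the gamma-activated sequence (GAS), so that the genes carrying these elements tend to be switched on as a block.

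The promoters of the list were searched for these elements. In RefSeq windows of 250 bases before to 50 after the gene start (build GRCm38.p6), 29 of the 38 genes had a window. The ISRE core GAAANNGAA, searched on both strands with overlaps counted, was found in 15 of the 29 genes (51.7%), against 9.76% of the 27025 genes in the table. More than 1 match stood in 9 windows of these genes, against 0.624% of all 32851 windows. The GAS letters TTCNNNGAA were found in 7 of the 29 (24.1%), against 9.55% of all genes. A match is a description of the letters and not a measured binding site. The windows below belong to the called genes, those with an adjusted p under 0.05 in a comparison described later, in which either motif was found; ISRE core matches are in capitals.
Ifit1 (chr19:34640639-34640938, plus strand): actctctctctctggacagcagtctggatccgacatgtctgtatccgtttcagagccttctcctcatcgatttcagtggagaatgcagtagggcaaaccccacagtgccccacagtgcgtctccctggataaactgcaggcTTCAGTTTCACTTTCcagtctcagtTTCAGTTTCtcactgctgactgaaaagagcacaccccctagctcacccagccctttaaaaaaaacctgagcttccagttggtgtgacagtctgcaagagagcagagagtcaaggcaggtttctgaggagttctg
Ddx60 (chr8:61927837-61928136, plus strand): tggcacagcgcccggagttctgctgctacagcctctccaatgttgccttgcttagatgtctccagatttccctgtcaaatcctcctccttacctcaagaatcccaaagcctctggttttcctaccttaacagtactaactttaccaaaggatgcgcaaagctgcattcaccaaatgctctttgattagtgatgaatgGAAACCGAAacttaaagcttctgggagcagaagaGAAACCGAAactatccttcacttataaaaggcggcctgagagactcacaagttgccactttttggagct
Rsad2 (chr12:26456403-26456702, minus strand): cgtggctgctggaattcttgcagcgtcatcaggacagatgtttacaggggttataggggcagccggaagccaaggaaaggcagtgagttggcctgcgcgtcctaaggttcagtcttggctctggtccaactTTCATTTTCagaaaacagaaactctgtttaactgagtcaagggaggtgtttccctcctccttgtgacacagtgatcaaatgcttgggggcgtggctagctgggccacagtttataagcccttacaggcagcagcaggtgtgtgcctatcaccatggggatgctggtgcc
Psmb8 (chr17:34197945-34198244, plus strand): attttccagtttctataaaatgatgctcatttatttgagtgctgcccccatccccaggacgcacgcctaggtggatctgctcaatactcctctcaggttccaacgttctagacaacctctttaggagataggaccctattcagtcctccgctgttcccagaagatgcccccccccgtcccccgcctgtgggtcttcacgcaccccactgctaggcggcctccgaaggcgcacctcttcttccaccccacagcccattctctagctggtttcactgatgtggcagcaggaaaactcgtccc
Ifit1 carried 3 matches, beginning 109, 103 and 84 bases before the start, of which the first and second share bases. Ddx60 carried 2 matches, 53 and 19 bases before the start. Rsad2 carried 1, at 119 bases. Psmb8, a proteasome subunit gene, had no ISRE core in this window and 1 GAS match, TTCCCAGAA, 97 bases before the start. The windows of the called genes Oasl2 and Lgals3bp held neither motif. The windows of Tap1 and Psmb9, which lie head to head, shared 275 bases and held neither motif.

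Across the series, array medians lay between 6.58 and 6.71 log2, where a log2 difference of 1 is 2-fold. As a check of the labels, Bank1 differed by -1.54 log2 (SE 0.42) between Bank1/Pax5 and Pax5 leukemia, which missed the threshold (limma adjusted p = 0.082), and Pax5 was not called in any comparison. A log2 level under 6.96, the median of all probe sets naming 1 gene, is called dim here. The mean was dim for 10 of the 37 interferon-stimulated genes in WT, 6 in Pax5 leukemia and 1 in Bank1/Pax5 leukemia, and the size of a difference from a dim group is not well bounded.

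The median level of these genes per array varied little in WT precursors and widely among leukemias. It was 8.03 to 8.23 log2 on the 4 WT arrays. In Pax5 leukemias 1 to 6 it was 9.36, 9.31, 8.21, 7.87, 7.60 and 9.38. In Bank1/Pax5 leukemias 1 to 6 it was 9.26, 7.57, 8.87, 9.08, 9.26 and 10.72. Pax5 leukemias 1, 2 and 6 lay above every WT array, 4 and 5 below, and 3 within the WT range. Of the Bank1/Pax5 leukemias, all but number 2 lay above every WT array. The ranges of the leukemia groups overlapped, and both spanned the WT range.

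**Figure D1:**
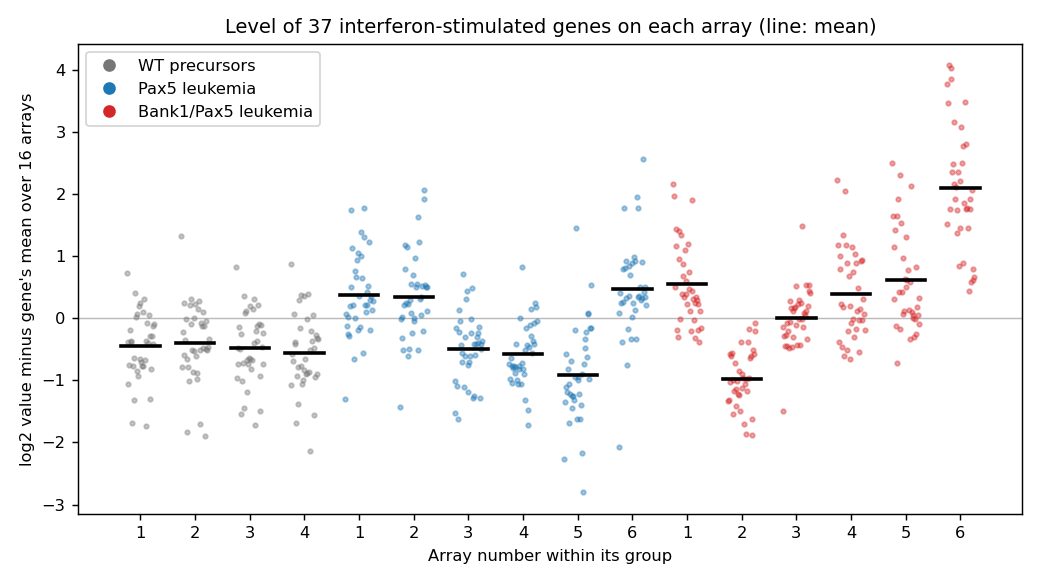
Each point is 1 of the 37 genes on 1 array, as its log2 value minus that gene's mean over the 16 arrays; the line is the mean of the 37 points. Bank1/Pax5 leukemia 6 stands highest with a mean of 2.10, Bank1/Pax5 leukemia 2 lowest with -0.97, and the WT means lie between -0.56 and -0.39.

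Bank1/Pax5 leukemia 6 was the highest of the 12 leukemias for 32 of the 37 genes, whereas 7.09% of all genes had their highest leukemia value there. The other 5 genes, Rsad2, Samd9l, Trim25, Lgals3bp and Gbp3, peaked on another leukemia. Bank1/Pax5 leukemia 6 exceeded every WT array for all 37, but the share of all genes that did so was not counted. At the low end, Pax5 leukemia 5 was the lowest leukemia for 19 genes (8.67% of all genes) and Bank1/Pax5 leukemia 2 for 12 (6.52% of all genes). Pax5 leukemia 3 held 5 of the lowest values (6.90% of all genes), and Pax5 leukemia 4 held 1 (4.99% of all genes). Over the 12 leukemias the median SD of these genes was 1.04 log2, against 0.200 for all genes, and 32 of the 37 were among the tenth of genes with the largest SD. Over the 4 WT arrays their median SD was 0.132, against 0.0866 for all genes, and 12 of the 37 were in the top class of SD formed in the same way over WT.

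**Figure D2:**
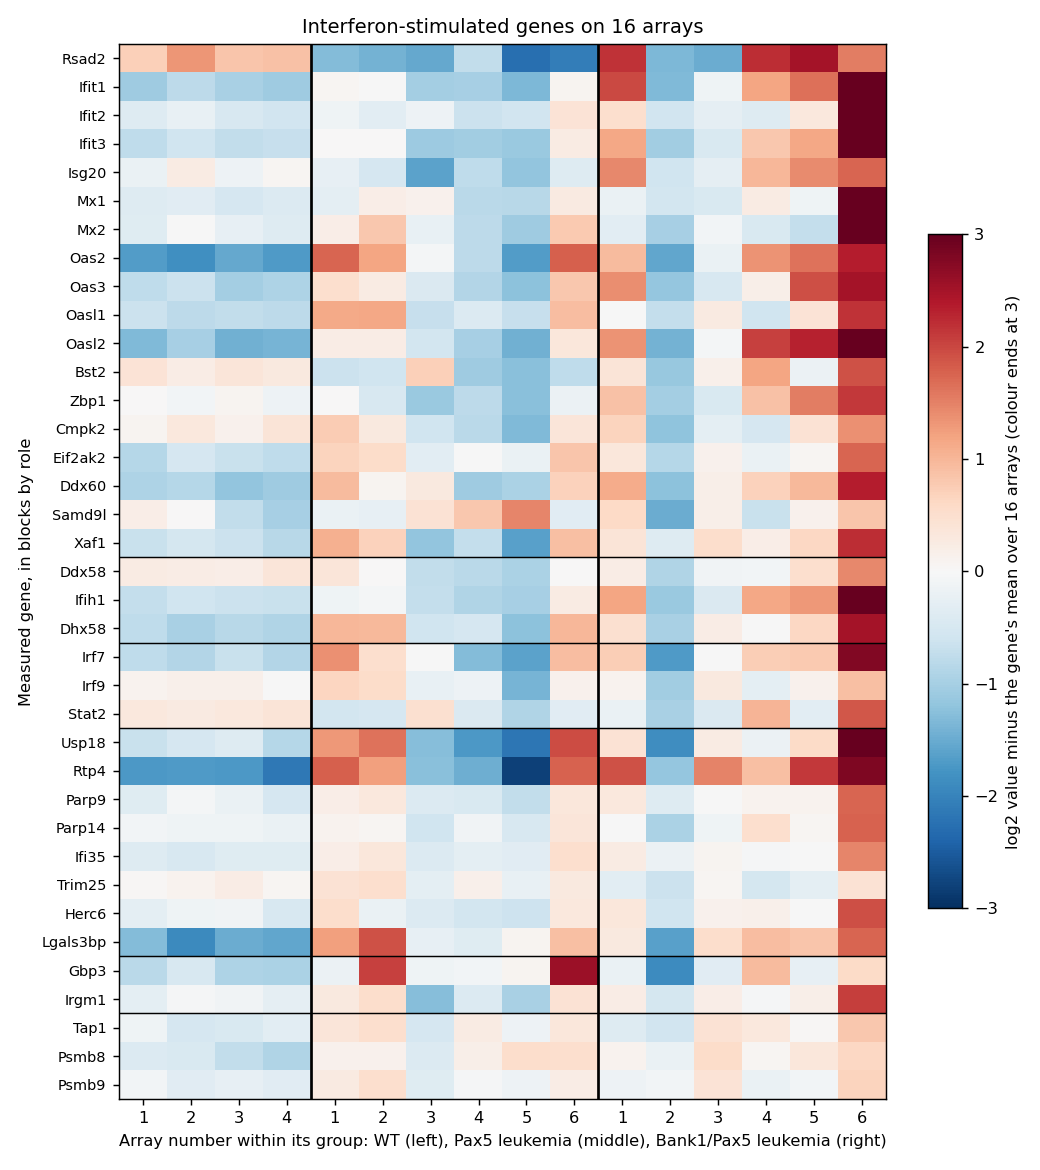
Rows are the 37 measured genes in blocks by role, columns are the 16 arrays in the order WT, Pax5 leukemia and Bank1/Pax5 leukemia, and colour is the log2 value minus the gene's mean over all arrays, with the scale ending at 3. Most rows are dark red on Bank1/Pax5 leukemia 6 and blue on Bank1/Pax5 leukemia 2 and Pax5 leukemia 5. Samd9l and Gbp3 are among the exceptions.

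Compared with WT, Pax5 leukemia had 2 genes of the list called higher and 1 called lower. Psmb8 and Lgals3bp rose and Rsad2 fell. Of all genes, 9.53% were called higher and 13.8% lower in this comparison. The median difference of the 37 genes was 0.32 log2, against -0.05 for all genes. Bank1/Pax5 leukemia had 7 of the 37 called higher than WT, Psmb8, Lgals3bp, Oasl2, Rtp4, Oas2, Ddx60 and Ifit1, and none lower. Of all genes, 6.8% were called higher and 12.8% lower here. The median difference of the 37 was 0.80 log2, against -0.03 for all genes, and at an unadjusted p under 0.05 limma gave 14 higher and 0 lower. The share of all genes at that unadjusted threshold was not counted, and it cannot be smaller than the adjusted share. The unadjusted counts given here and below therefore have no background to set them against. With all genes scaled by cyclic loess, the split of calls over all genes went from 1901 higher and 2754 lower to 2253 and 2225 for Pax5 leukemia, and from 1356 and 2543 to 2034 and 2012 for Bank1/Pax5 leukemia. Centring arrays on their medians gave 2021 and 1953 for Pax5 leukemia, and centring on named genes, listed among the alternatives chosen after seeing the data, gave 1086 and 5330 for Bank1/Pax5 leukemia. These comparisons share their WT arrays. The count of 7 ranged from 2, without WT array 2, 3 or 4, to 13 without Bank1/Pax5 leukemia 2; it was 3 without WT array 1 and 4 without Bank1/Pax5 leukemia 1, 4, 5 or 6.

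Between the leukemia groups, 0 of the 37 genes were called in either direction by limma on the 12 leukemia arrays, where 0.436% of all genes were called higher and 1.8% lower in Bank1/Pax5 leukemia. At an unadjusted p under 0.05 there were 5 higher and 0 lower, Isg20, Rsad2, Zbp1, Ifit1 and Oasl2. The median difference was 0.50 log2, against 0.02 for all genes, and it was 0.13 without Bank1/Pax5 leukemia 6. Isg20 was nearest to the threshold with a difference of 1.58 (SE 0.43, adjusted p = 0.078). A fit that included the WT arrays, whose spread is smaller, called Isg20 (adjusted p = 0.025) and Rsad2 (adjusted p = 0.036) higher in Bank1/Pax5 leukemia. Leaving out Bank1/Pax5 leukemia 2 also gave these 2 calls, and leaving out Bank1/Pax5 leukemia 3 gave Rsad2 alone. With cyclic loess the split over all genes went from 87 higher and 359 lower to 184 and 220, and with centring on named genes to 28 and 406.

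Among the antiviral effectors, 4 of 18 were called higher in Bank1/Pax5 leukemia than in WT, against 6.8% of all genes. In Pax5 leukemia 1 of 18 was called lower and 0 higher, against 13.8% and 9.53% of all genes. At an unadjusted p under 0.05, 2 were higher in Pax5 leukemia. Ifit1 encodes a protein that binds viral RNA lacking the host cap methylation. Its levels were 5.61, 5.89, 5.72 and 5.61 log2 in WT. In Pax5 leukemia they ran from 5.33 through a median of 6.18 to 6.76, and in Bank1/Pax5 leukemia from 5.36 through 8.09 to 10.45. All Bank1/Pax5 arrays but leukemia 2 lay above every WT array. The difference from WT was 2.16 (SE 0.71, adjusted p = 0.046), which lost the call without any 1 of the WT or Pax5 arrays, or without Bank1/Pax5 leukemia 1, 4, 5 or 6 (adjusted p from 0.052 to 0.104 over these fits). Ddx60, a helicase that aids RNA sensing, was dim in WT at 5.98 ± 0.15 (SD, n = 4) and stood at 7.66 ± 1.18 (SD, n = 6) in Bank1/Pax5 leukemia. Its rise of 1.68 (SE 0.55, adjusted p = 0.044) lost the call when any WT array was left out, when Bank1/Pax5 leukemia 1, 4, 5 or 6 was, or when Pax5 leukemia 2 or 3 was.

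The oligoadenylate synthetase family makes the messenger that activates the RNA-degrading enzyme RNase L, and Oasl2 is a relative of these enzymes. Oas2 was 6.90, 6.75, 7.04 and 6.88 in WT. In Pax5 leukemias 1 to 6 it was 10.33, 9.76, 8.53, 7.80, 6.90 and 10.36, and in Bank1/Pax5 leukemias 1 to 6 it was 9.53, 7.03, 8.38, 9.92, 10.22 and 10.93. All leukemias but Pax5 leukemia 5 and Bank1/Pax5 leukemia 2 lay above every WT array. The rise over WT was 2.44 in Bank1/Pax5 leukemia (SE 0.76, 5.43-fold, adjusted p = 0.036). The difference of 2.06 in Pax5 leukemia missed the threshold (adjusted p = 0.065). With only Pax5 leukemia and WT in the limma fit it passed (adjusted p = 0.042). It also passed with dim probe sets removed, with array weights, or without Bank1/Pax5 leukemia 2 or Pax5 leukemia 5. The remaining alternatives missed (adjusted p up to 0.15). Between the leukemia groups Oas2 differed by 0.39 (SE 0.77, adjusted p = 0.81). The Bank1/Pax5 call was lost without any 1 of the WT arrays or Bank1/Pax5 leukemia 1, 4, 5 or 6. Oasl2 rose by 2.52 in Bank1/Pax5 leukemia (SE 0.70, adjusted p = 0.020), from 7.44 ± 0.19 (SD, n = 4) in WT to 9.96 ± 1.69 (SD, n = 6), with 5 of 6 leukemias above WT; the call was lost without WT array 3 or 4. With only Bank1/Pax5 leukemia and WT in the fit, Ifit1, Ddx60 and Oasl2 were not called (adjusted p = 0.103, 0.065 and 0.055). Oas3 and Oasl1 were not called.

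Rsad2, which encodes the antiviral enzyme viperin, was 9.18, 9.79, 9.29 and 9.34 in WT. In Pax5 leukemia it ran from 6.19 through a median of 6.98 to 7.72. In Bank1/Pax5 leukemias 1 to 6 it was 10.62, 7.12, 6.97, 10.68, 10.95 and 9.98. Every Pax5 leukemia lay below every WT array, while 4 Bank1/Pax5 leukemias lay above them and leukemias 2 and 3 lay with the Pax5 group. The fall in Pax5 leukemia was -2.50 log2 (SE 0.73, 5.64-fold lower, adjusted p = 0.023). The call was lost without WT array 2, 3 or 4 (adjusted p from 0.052 to 0.059) and with the replicate number as a block (adjusted p = 0.054). With only Pax5 leukemia and WT in the limma fit it was kept, at a smaller SE (0.27, adjusted p = 0.00019). The difference between the leukemia groups was 2.48 (SE 0.73) and missed the threshold (adjusted p = 0.098). Within Pax5 leukemia Rsad2 did not follow the level of the other interferon-stimulated genes (r = 0.01 over 6 arrays). Of the NK cell markers, 5 of 8 were called lower than WT in Pax5 leukemia and 4 in Bank1/Pax5 leukemia, against 13.8% and 12.8% of all genes. The NK list level was 7.92 to 8.87 in WT and 5.50 to 5.68 in Pax5 leukemia. In Bank1/Pax5 leukemias 1 to 6 it was 6.22, 5.75, 6.95, 7.03, 6.63 and 8.25. The erythroid list (5 of 8 measured) was 9.98 to 10.61 in WT and 7.13 to 9.67 in Pax5 leukemia, with 1 gene called lower. In Bank1/Pax5 leukemias 1 to 6 the erythroid level was 11.34, 8.16, 7.04, 11.49, 10.77 and 8.17. The part of these cells in the Rsad2 values was not tested.

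**Figure D3:**
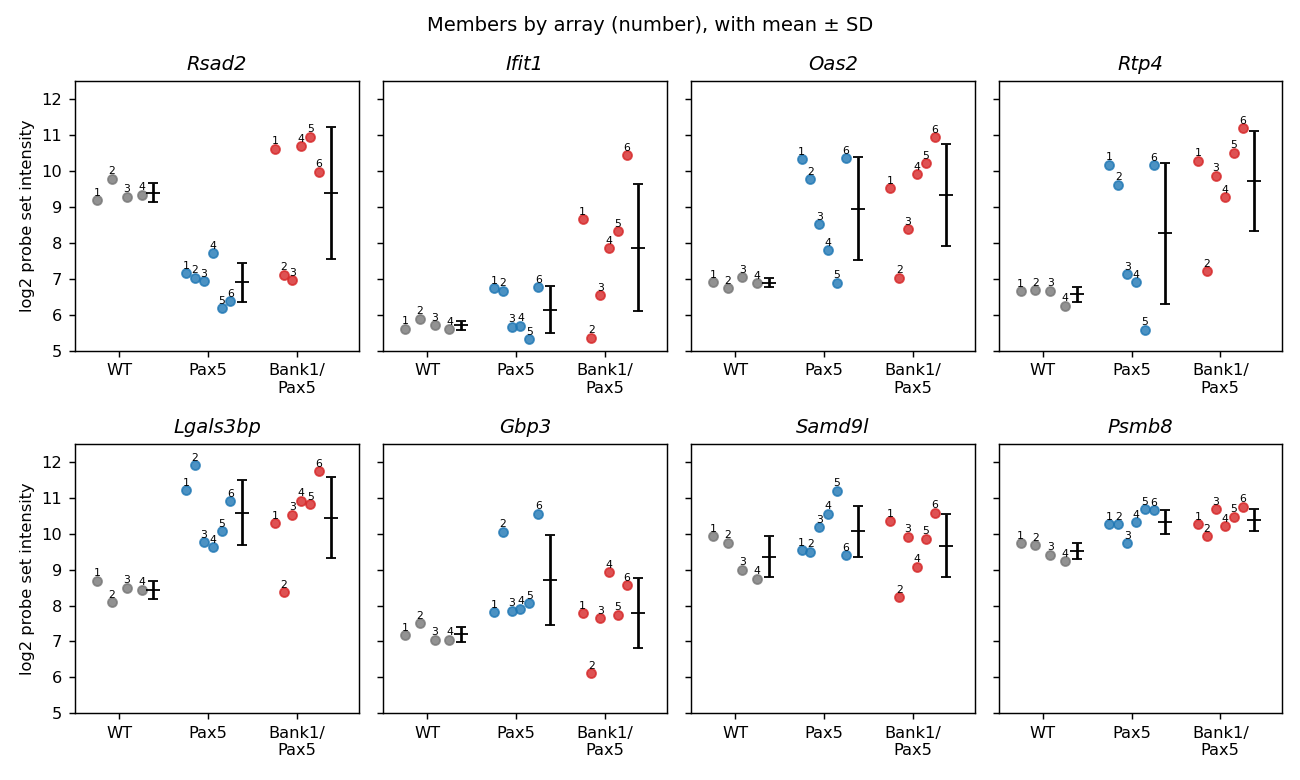
Log2 levels of 8 genes on each array (points, numbered by replicate) with the group mean ± SD. Rsad2 separates every Pax5 leukemia from WT, Lgals3bp and Psmb8 lie above WT in all Pax5 leukemias, and Samd9l is highest on Pax5 leukemia 5, where most of the list was lowest.

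Isg20, an exonuclease with the highest mean among the effectors, averaged 9.82 ± 0.20 (SD, n = 4) in WT. The mean was 9.04 ± 0.52 (SD, n = 6) for Pax5 leukemias and 10.62 ± 0.99 (SD, n = 6) for Bank1/Pax5 leukemias, and neither difference from WT was called. As with Rsad2, every Pax5 leukemia lay below every WT array, Bank1/Pax5 leukemias 1, 4, 5 and 6 lay above them, and leukemias 2 (9.22) and 3 (9.56) lay below. Mx1 and Mx2, GTPases that trap incoming viruses, were high on a single array: Mx1 was 10.81 on Bank1/Pax5 leukemia 6 and between 5.95 and 7.03 elsewhere. Mx2 was 9.93 there and between 5.01 and 6.88 elsewhere. Samd9l, an effector that restrains protein synthesis, ran the other way within Pax5 leukemia. Its levels in Pax5 leukemias 1 to 6 were 9.55, 9.50, 10.17, 10.56, 11.20 and 9.41, highest on the 3 arrays of that group where the list as a whole was lowest (r = -0.97, rho = -0.94 with the level of the other genes over 6 arrays). In Bank1/Pax5 leukemia it went with the list (r = 0.81 over 6 arrays).

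Ddx58 (RIG-I), Ifih1 (MDA5) and Dhx58 (LGP2) are sensors of viral RNA in the cytoplasm, where Ddx58 and Ifih1 start the interferon response. None of the 3 was called in any comparison by limma; at an unadjusted p under 0.05, 2 were higher in Bank1/Pax5 leukemia than in WT and 0 passed in the other comparisons. Ifih1 averaged 6.85 ± 0.04 (SD, n = 4) in WT. It was 7.08 ± 0.51 (SD, n = 6) for Pax5 leukemia and 8.37 ± 1.47 (SD, n = 6) for Bank1/Pax5 leukemia, where leukemia 6 reached 10.58 and leukemia 2 stood at 6.39. Dhx58 had means of 7.32, 8.29 and 8.66 in the same order. Ddx58 averaged 10.03 in WT and was the gene closest to the level of the others over the 12 leukemias (r = 0.98).

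The transcription factors Irf7, Irf9 and Stat2 drive the response, Irf7 as its amplifier, and none was called; at an unadjusted p under 0.05, 0 passed in any comparison. Irf7 was 8.02 to 8.23 in WT, 7.29 to 10.29 in Pax5 leukemia and 7.19 to 11.68 in Bank1/Pax5 leukemia, overlapping in all groups. Irf9 had means of 9.76, 9.59 and 9.68 in WT, Pax5 and Bank1/Pax5 leukemia. Stat2 had means of 9.52, 8.82 and 9.35, and within Pax5 leukemia it did not follow the list (r = -0.03 over 6 arrays).

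Among the 8 regulators, 1 was called higher in Pax5 leukemia and 2 in Bank1/Pax5 leukemia against WT, beside 9.53% and 6.8% of all genes. Lgals3bp, a secreted glycoprotein that binds galectins, was 8.69, 8.09, 8.50 and 8.44 in WT. It ran from 9.62 through a median of 10.49 to 11.91 in Pax5 leukemia and from 8.37 through 10.67 to 11.75 in Bank1/Pax5 leukemia. Only Bank1/Pax5 leukemia 2 fell within the WT range. The rise was 2.15 (SE 0.55, 4.44-fold, adjusted p = 0.012) in Pax5 leukemia and 2.02 (SE 0.55, 4.05-fold, adjusted p = 0.019) in Bank1/Pax5 leukemia, the latter at adjusted p = 0.056 without WT array 2. Both calls were lost with the replicate number as a block in the limma fit (adjusted p = 0.068 and 0.094). Rtp4, a chaperone of membrane receptors, was 6.66, 6.69, 6.67 and 6.25 in WT. In Bank1/Pax5 leukemias 1 to 6 it was 10.29, 7.22, 9.87, 9.28, 10.51 and 11.19, all above WT. Its rise of 3.16 (SE 0.91, 8.92-fold, adjusted p = 0.025) was the largest of the list, and the call was lost without any 1 WT array (adjusted p from 0.053 to 0.069). In Pax5 leukemias 1 to 6 Rtp4 was 10.17, 9.62, 7.13, 6.92, 5.58 and 10.16, far above WT on arrays 1, 2 and 6 and below it on array 5, and the difference was not called. Usp18, which removes the ISG15 modifier and damps receptor signalling, split the same arrays, from 6.39 on Pax5 leukemia 5 to 10.51 on Pax5 leukemia 6, and reached 12.04 on Bank1/Pax5 leukemia 6. Trim25, a ubiquitin ligase that acts on RIG-I and had the highest mean of the regulators, stayed between 9.41 and 10.56 on all arrays.

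The GTPases Gbp3 and Irgm1 attack vacuoles of intracellular microbes after interferon gamma. Neither was called; at an unadjusted p under 0.05, 1 was higher in Pax5 leukemia than in WT and 0 passed in the other comparisons. Gbp3 was 7.18, 7.50, 7.06 and 7.05 in WT and 7.81, 10.05, 7.86, 7.92, 8.07 and 10.56 in Pax5 leukemias 1 to 6, so that all 6 lay above WT and leukemias 2 and 6 stood apart (difference 1.51, SE 0.60, adjusted p = 0.083). Irgm1 was 9.67, 9.61 and 10.20 on average in WT, Pax5 and Bank1/Pax5 leukemia.

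Tap1 carries peptides to MHC class I, and Psmb8 and Psmb9 are subunits of the immunoproteasome that cuts them. Psmb8 was 9.73, 9.69, 9.41 and 9.24 in WT. It ran from 9.74 through 10.30 to 10.68 in Pax5 leukemia and from 9.94 through 10.36 to 10.75 in Bank1/Pax5 leukemia, and no leukemia array overlapped WT. It rose by 0.80 (SE 0.19, 1.74-fold, adjusted p = 0.0070) and 0.87 (SE 0.19, 1.83-fold, adjusted p = 0.0048), calls kept under every alternative tried. Psmb8 had the smallest SD of the list over the leukemias (0.31), and in Pax5 leukemia it did not follow the level of the others (r = 0.06 over 6 arrays). Tap1 and Psmb9 were not called; Psmb9 had means of 10.16, 10.48 and 10.50 in WT, Pax5 and Bank1/Pax5 leukemia.

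Most genes of the list varied together from leukemia to leukemia. The correlation of a gene with the level of the other members over the 12 leukemias had a median of 0.88 (rho 0.79), and 0.80 (rho 0.64) without Bank1/Pax5 leukemias 6 and 2, the arrays farthest from the median. It was under 0.5 for Samd9l (0.09), Gbp3 (0.39), Psmb8 (0.45) and Trim25 (0.47). These correlations describe arrays that share their normalization and, within a group, their genotype. Of the 19901 other genes, the 10 closest to the list's level over the 12 leukemias were Parp12 (r = 0.97), Rnf213, Usp25, Slfn5, Trim30a, Nampt, Sp100, Dtx3l, H2-T24 and 1600012H06Rik (r = 0.89). Of these, 5 stand on a separate list of 40 measured interferon-stimulated genes, and 20 of that list were among the 100 closest.

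On that separate list, 4 genes were called higher and 4 lower in Pax5 leukemia than in WT, and 7 higher and 0 lower in Bank1/Pax5 leukemia. At an unadjusted p under 0.05 limma gave 4 higher and 6 lower, and 14 higher and 0 lower. At the adjusted threshold, all genes gave 9.53% higher and 13.8% lower calls in Pax5 leukemia, and 6.8% and 12.8% in Bank1/Pax5 leukemia. The adjusted counts of the list in Pax5 leukemia lie near this background. The proteasome activator genes Psme1 and Psme2 rose in both, Psme2 by 0.47 (adjusted p = 0.014) and 0.85 (adjusted p = 0.00025). Gbp7, a GTPase of the Gbp family, rose by 2.19 in Pax5 leukemia (adjusted p = 0.014). Sp100, a nuclear body protein, fell by 1.51 in Pax5 leukemia (adjusted p = 0.0088), and Nmi rose by 0.83 in Bank1/Pax5 leukemia (adjusted p = 0.010). None of the 40 was called between the leukemia groups, with 6 higher and 1 lower at an unadjusted p under 0.05.

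Of 16 measured interferon genes upstream of the response, 0 were called higher and 1 lower in Pax5 leukemia than in WT, and 0 higher and 2 lower in Bank1/Pax5 leukemia. Over all genes the shares were 9.53% higher and 13.8% lower in Pax5 leukemia, and 6.8% and 12.8% in Bank1/Pax5 leukemia. For the 16 genes, limma at an unadjusted p under 0.05 gave 0 higher and 5 lower, and 0 higher and 2 lower. Between the leukemia groups 0 were called, with 1 higher and 1 lower at that unadjusted p. The genes called lower were Ifng in both leukemias and Ifna9, an interferon alpha gene, in Bank1/Pax5 leukemia (a difference of -0.16, adjusted p = 0.0112). Ifnb1 was between 4.95 and 5.22 on every array, below the median of probe sets. Ifng fell by 0.99 in Pax5 leukemia (adjusted p = 2.3e-05) and by 0.84 in Bank1/Pax5 leukemia (adjusted p = 0.00010), from 6.98 ± 0.25 (SD, n = 4) in WT to dim levels of 5.98 and 6.14. Of 19 receptor and JAK-STAT genes, 1 was called higher and 2 lower than WT in each leukemia, counts near the shares over all genes given above. The receptor gene Ifngr1 rose by 0.67 (adjusted p = 0.018) in Pax5 and 0.62 (adjusted p = 0.030) in Bank1/Pax5 leukemia. Ifnar1 was between 9.93 and 10.41 on all arrays, and Ifnar2 and Ifngr2 were not called. Irf1, a factor induced by interferon gamma, fell by 0.78 in Pax5 leukemia (adjusted p = 0.0079), and the feedback inhibitor Socs1 was not called.

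Of 18 sensing genes, 3 were called higher and 2 lower in Pax5 leukemia, and 4 higher and 2 lower in Bank1/Pax5 leukemia. The shares over all genes were 9.53% higher and 13.8% lower in Pax5 leukemia, and 6.8% and 12.8% in Bank1/Pax5 leukemia. Between the leukemia groups 0 were called higher and 1, Sting1, lower. Tlr7, an endosomal sensor of RNA, rose by 2.12 in Pax5 leukemia (adjusted p = 0.019), and Tlr8 rose by 2.37 in Bank1/Pax5 leukemia (adjusted p = 0.011). Cgas, the sensor of cytosolic DNA, rose in both, by 0.40 and 0.56, although dim in all groups. Its partner Sting1 rose by 0.71 in Pax5 leukemia (adjusted p = 0.00085) and differed by -0.56 (SE 0.12, adjusted p = 0.040) between Bank1/Pax5 and Pax5 leukemia. Traf6, a ubiquitin ligase of Toll-like receptor signalling, fell by 1.12 in Pax5 and by 1.31 in Bank1/Pax5 leukemia.

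Markers of other cells differed between these arrays as well. The counts called below stand beside 9.53% of all genes called higher and 13.8% lower than WT in Pax5 leukemia. In Bank1/Pax5 leukemia these shares were 6.8% and 12.8%. The macrophage list (12 of 12 measured) had a level of 6.61 to 6.75 in WT, 8.47 to 9.94 in Pax5 and 8.63 to 11.32 in Bank1/Pax5 leukemia, with 6 and 9 of its genes called higher than WT; C1qa, C1qb and C1qc were dim in WT. The plasmacytoid dendritic cell list (6 of 8 measured, Bst2 among them) was 9.89 to 10.15 in WT, 7.45 to 10.99 in Pax5 and 8.16 to 10.56 in Bank1/Pax5 leukemia, highest on Pax5 leukemia 3 and next on Bank1/Pax5 leukemia 6. The megakaryocyte list (5 of 7 measured) was 6.73 to 7.02 in WT, 8.74 to 11.28 in Pax5 and 9.39 to 11.50 in Bank1/Pax5 leukemia, with 4 and 5 of its genes called higher than WT. The stromal and endothelial list (10 of 10 measured) had a median of 6.58 over the WT arrays and was 8.19 to 9.96 in Pax5 and 7.95 to 9.88 in Bank1/Pax5 leukemia, with 7 and 6 called higher. The NK list was highest of all leukemias on Bank1/Pax5 leukemia 6, at 8.25. The neutrophil list (12 of 12 measured) was 7.19 to 9.46 in WT, 7.06 to 11.54 in Pax5 and 7.85 to 12.30 in Bank1/Pax5 leukemia. In each leukemia 1 neutrophil gene was called higher than WT. The T cell list (8 of 8 measured) was 6.80 to 6.98 in WT, 6.17 to 6.66 in Pax5 and 6.47 to 7.56 in Bank1/Pax5 leukemia. In Pax5 leukemia 1 T cell gene was called lower. The B cell precursor list was 11.84 to 11.96 in WT and 7.52 to 11.37 among leukemias, with 8.64 on Bank1/Pax5 leukemia 6, 11.15 on Bank1/Pax5 leukemia 2 and 7.52 on Pax5 leukemia 5. The part of these cells in the interferon-stimulated gene levels was not tested. In bulk RNA, fewer cells of a type and less RNA per cell cannot be told apart.

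**Figure D4:**
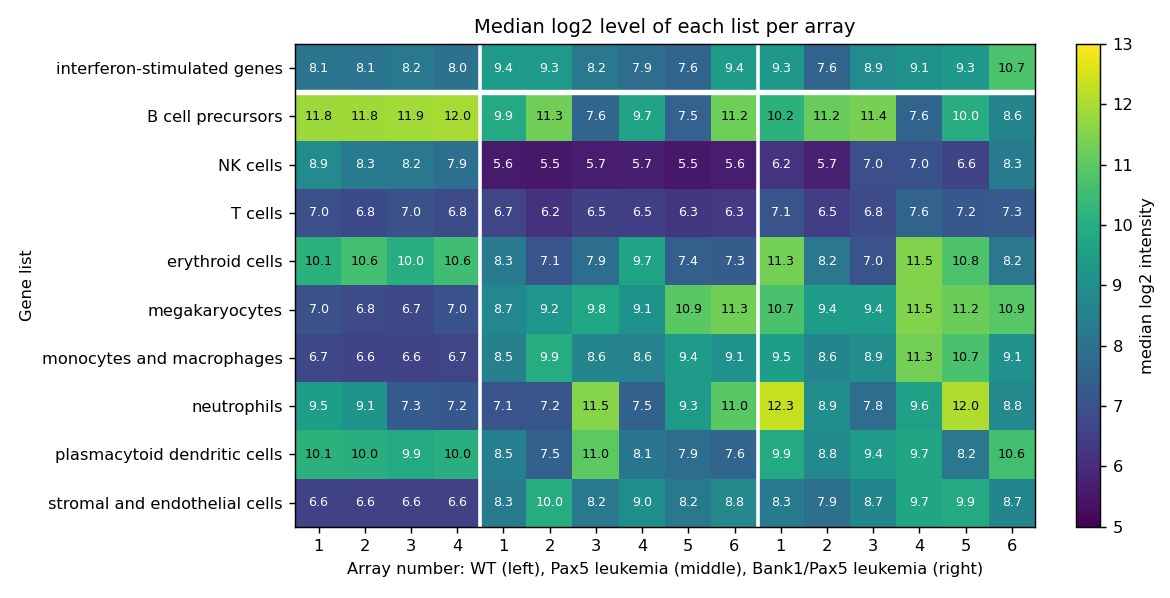
Median log2 level of the 37 interferon-stimulated genes (top row) and of 9 marker lists on each array, with WT, Pax5 and Bank1/Pax5 leukemia from left to right. The top row peaks at 10.7 on Bank1/Pax5 leukemia 6, where the NK list reads 8.3 and the B cell precursor list 8.6.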

How the data were processed

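RNA of 16 mouse arrays was measured as probe set intensities. Per the submitters' processing notes the authors used RMA through oligo, versions not given in the sources used here, and the deposited values are log2 intensities, used without further scaling. The array's build: not given in the sources used here. Of 35556 probe sets, those naming 1 gene were kept, 1 per gene (highest mean), which left 19938 genes.

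Group means were compared with limma 3.58.1 in R 4.3.3 (moderated test, two-sided, Benjamini-Hochberg over all genes, called under 0.05): on all 16 arrays against WT, and on the 12 leukemia arrays between leukemia groups, since WT arrays vary less. The number of arrays limits the precision. The procedure was tested on simulated data.

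The members, lists and tests were chosen with earlier results of these data known. Named members are those called, the 2 of largest SD over leukemias and the 1 of highest mean in each role; fixed and top called pathway genes and the 10 most alike genes are named too. Other genes, among them Samd9l, Mx1, Mx2 and Bst2, the genes plotted singly and the promoters printed were picked after their values were seen. Alternatives were a dim filter, averaged probe sets, cyclic loess, median centring, variance trend, array weights, other samples in the fit, a replicate block and leaving out each array. Promoter windows were taken from RefSeq.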

Additional observations from a re-analysis of the deposited data

Results flagged for a closer look

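Of 114 checks for an array far from the rest of its group, 8 gave a result, and chance alone gives about 1 in 20. In Bank1/Pax5 leukemia, array 6 stood far above the other 5 for Ifit2 (10.65), Mx1 (10.81), Mx2 (9.93), Parp9 (10.91), Ifi35 (10.34) and Irgm1 (11.91). In WT, array 4 stood below the others for Rtp4 (6.25, others 6.66 to 6.69). In Pax5 leukemia, array 3 stood above the others for Bst2 (10.16, others 8.18 to 8.84). Outside the comparisons, the probe set shared by Irgm2 and Igtp read 10.50 on Bank1/Pax5 leukemia 6 against 7.31 to 7.69 in WT. This rise was not particular to that array. Every leukemia but Bank1/Pax5 leukemia 2 (7.24) lay above every WT array, and the Pax5 leukemias read 7.75 to 9.22. The probe set shared by Isg15 and Gm9706 read 7.43 on Bank1/Pax5 leukemia 6 against 6.13 to 6.41 in WT. Bank1/Pax5 leukemias 1 and 5 also lay above every WT array, and the Pax5 leukemias read 5.81 to 6.21.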

How the results depend on the processing

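The number of genes of the list called higher in Pax5 leukemia than in WT (2) became 5 with array weights, 4 with only these groups in the fit and 1 with the replicate number as a block, and those called lower (1) became 3, 3 and 0. For Bank1/Pax5 leukemia against WT, 7 higher became 16 with array weights, 4 with only these groups and 1 with the replicate block. Between the leukemia groups, 0 higher became 1 with array weights and 2 with all 16 arrays. Leaving out each array gave 2 to 3 higher and 0 to 1 lower for Pax5 leukemia against WT (0 lower without WT array 2, 3 or 4), 2 to 13 higher for Bank1/Pax5 leukemia against WT, and 0 to 2 between the leukemia groups; the median differences ranged from 0.16 to 0.41, 0.43 to 1.03 and 0.13 to 0.76. Arrays of the same replicate number in different groups had correlations from -0.38 to 0.32, with 6 of 14 pairs over 0.1. Arrays of different numbers were not compared in this way, so whether the numbers pair the mice cannot be told. As a mean of centred genes in place of a median, the level relative to the mean over arrays was -0.0006 for Bank1/Pax5 leukemia 3, where the sign turned, and -0.45, -0.39 and -0.56 for WT 1, 2 and 4. Over the 37 genes and all settings, 2536 results kept their side of the threshold, 53 lost a call, 35 gained one and 0 called results changed sign. Over all genes, calls of 4655, 3899 and 446 in the order above became 8104, 6486 and 759 with array weights, and 3112 and 2542 against WT with the replicate block; between the leukemia groups the block left 0, median centring 265, a variance trend 185 and all 16 arrays 1336. Leaving out WT 4 left 3072 calls for Pax5 leukemia against WT. Between the leukemia groups the count was 234, 124 and 192 without Bank1/Pax5 leukemia 1, 5 or 6, and 228, 188, 133, 115 and 215 without Pax5 leukemia 1, 2, 4, 5 or 6. Centring was run in 2 ways. On the median of all probe sets it gave 2021 higher and 1953 lower, 1495 and 2099, and 39 and 226. On the median of named genes, which was run first, it gave 1644 and 3633, 1086 and 5330, and 28 and 406. Which of these counts as the planned centring was decided after the first had been seen, and the centring on named genes is therefore listed as an alternative chosen after seeing the data; neither changed the counts of called list genes by over 1.5 times. The causes of these changes were not tested.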
